A study of Mus musculus with 6 samples.

Results

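Guanylate-binding proteins (GBPs) are large interferon-induced GTPases of the dynamin superfamily. Interferon gamma switches on their genes, with the transcription factor IRF1 among those that act on them. The proteins gather on the vacuoles of intracellular pathogens, where they work with the ATG8 conjugation machinery and the immunity-related GTPases (IRGs), and they promote inflammasome signalling. They are best known from macrophages. The 8 genes Gbp2 to Gbp9 were taken by name from 24333 genes kept in the tables, and all 8 passed the filter on low values (a mean of at least 1 FPKM), which left 9831 genes to test. FPKM counts sequenced fragments per kilobase of transcript, scaled to the size of the library.

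Splenic NK cells came from female C57BL/6 mice given either complexes of IL-15 (IL-15C, 3 libraries) or complexes of IL-2 (IL-2C, 3 libraries), and libraries are numbered by the replicate in their titles. The sort kept cells with NKp46 and NK1.1 that lacked CD3 and CD1d tetramer binding. The labels give no age, dose or time, and untreated cells were not analysed here, so every group had received a cytokine complex. The study concerns NK cells and protection from cerebral malaria, and the comparison asks how Gbp transcripts differ between the treatments. Separate mice are not stated for the libraries of a group, and p-values then measure only their spread, which may be technical.

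The deposited intervals imply 23543141 to 27229145 fragments per library, a figure that cannot be read as the sequencing depth. NK marker genes summed to 10361 to 10963 FPKM after IL-15C and 9734 to 11153 after IL-2C, and 0 of 8 were called. Of 10 macrophage and monocyte markers, 8 were under 1 FPKM in every library, and their sum, mostly Lyz2, was 22.2 to 31.4 FPKM after IL-15C and 17.5 to 25.5 after IL-2C. Of the other marker lists, 1 of 5 tested granulocyte markers (Retnlg) and Pecam1 were called higher after IL-15C. Pecam1 was listed for endothelium and stroma, but the other 5 markers of that list were under 1 FPKM in every library. That list therefore rests on Pecam1 alone. B cell markers varied from 1.04 to 15.5 FPKM between libraries. IL-15C library 1 stood apart, with granulocyte markers at 107 FPKM (39.2 to 58.2 elsewhere), erythroid markers at 21.8 (1.18 to 3.80) and T cell markers at 71.9 (51.1 to 58.3). The T cell sum was mostly Cd3g and Cd3d. Of its 7 markers, 4 were under 1 FPKM in every library, Cd4 and Cd8a among them. IL-15C library 1 also held the highest value of 5 of the 8 Gbp genes, as it did for 25.0% of all genes tested. IL-2C library 1 held the lowest value of 5 of the 8, for which no share over all genes was computed. The part of other cell types in the results was not tested. Values without IL-15C library 1 are given beside the members, their sums and the interferon list medians.

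The genes lie in 2 clusters of mm10. Gbp5, Gbp7, Gbp3 and Gbp2 are on the plus strand of chromosome 3, between 142496934 and 142638008. Gbp8, Gbp9, Gbp4 and Gbp6 are on the minus strand of chromosome 5, between 105014153 and 105293699. The following 60 coding bases of GENCODE M21 transcripts (GRCm38, coding strand) span the phosphate-binding loop of the GTPase domain, in capitals, and are shown because they make visible how alike the chromosome 5 paralogues are.
Gbp4: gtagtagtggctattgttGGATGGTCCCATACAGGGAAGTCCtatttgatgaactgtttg
Gbp6: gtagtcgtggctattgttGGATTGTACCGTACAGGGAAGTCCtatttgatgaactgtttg
Gbp8: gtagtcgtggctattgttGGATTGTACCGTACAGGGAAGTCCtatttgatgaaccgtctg
Gbp9: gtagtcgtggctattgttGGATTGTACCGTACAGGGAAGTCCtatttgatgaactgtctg
Gbp2: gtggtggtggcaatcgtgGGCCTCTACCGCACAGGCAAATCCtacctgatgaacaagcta
Gbp7: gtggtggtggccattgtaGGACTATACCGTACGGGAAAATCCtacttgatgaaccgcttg
Gbp9 differed from Gbp8 at 1 of the 60 bases and from Gbp6 at 1, while Gbp4 differed from Gbp9 at 5, from Gbp7 at 15 and from Gbp2 at 21. Over a whole transcript, 70.3% of the 50-base windows of Gbp6 also occurred in another Gbp gene, and 62.3% in Gbp10. The share was 21.2% for Gbp8, 12.8% for Gbp4, 9.56% for Gbp9, 4.79% for Gbp3, 2.28% for Gbp7, 2.07% for Gbp2 and 0% for Gbp5. In GENCODE M21 the spans of Gbp4, Gbp8 and Gbp9 overlap. For each gene, the exonic bases shared with its partners, added over both partners, came to 120 to 121. A base shared with both partners is counted once for each, so fewer distinct bases are shared. Values of Gbp6, Gbp8, Gbp4 and Gbp9 are therefore uncertain gene by gene, and the family sum is given beside them.

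RefSeq promoter sequences (GRCm38.p6) were matched by symbol for 4 members, all on chromosome 3, and not for Gbp4, Gbp6, Gbp8 and Gbp9. They are shown because each holds the letters of an interferon-stimulated response element (ISRE) before its start. Capitals mark the ISRE, searched as GAAA, any 2 bases, GAAA on both strands, and the gamma-activated site (GAS), searched as TTCNNNGAA, which reads the same on both strands. Each sequence is the 250 bases before the start.
Gbp2 chr3:142620413-142620662 (+): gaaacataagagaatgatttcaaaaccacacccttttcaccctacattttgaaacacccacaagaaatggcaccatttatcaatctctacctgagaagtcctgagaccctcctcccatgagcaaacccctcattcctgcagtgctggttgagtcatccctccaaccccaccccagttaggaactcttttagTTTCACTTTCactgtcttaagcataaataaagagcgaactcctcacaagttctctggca
Gbp3 chr3:142559794-142560043 (+): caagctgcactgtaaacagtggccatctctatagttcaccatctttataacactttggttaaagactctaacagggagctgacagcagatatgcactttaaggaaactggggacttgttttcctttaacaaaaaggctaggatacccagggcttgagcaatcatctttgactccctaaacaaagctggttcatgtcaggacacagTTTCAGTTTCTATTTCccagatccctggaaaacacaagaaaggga
Gbp5 chr3:142496684-142496933 (+): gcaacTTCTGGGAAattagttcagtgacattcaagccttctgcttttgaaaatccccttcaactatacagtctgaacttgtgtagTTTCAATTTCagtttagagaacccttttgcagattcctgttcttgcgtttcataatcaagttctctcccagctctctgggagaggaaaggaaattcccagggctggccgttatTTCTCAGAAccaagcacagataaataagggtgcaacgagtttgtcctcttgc
Gbp7 chr3:142530086-142530335 (+): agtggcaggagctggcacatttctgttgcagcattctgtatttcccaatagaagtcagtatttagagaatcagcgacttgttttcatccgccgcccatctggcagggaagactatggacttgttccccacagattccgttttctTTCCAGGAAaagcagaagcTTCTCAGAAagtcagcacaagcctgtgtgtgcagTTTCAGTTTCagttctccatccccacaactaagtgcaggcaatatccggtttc
ISRE letters began 59 bases before the start of Gbp2, 53 before Gbp7, 45 and 39 (overlapping) before Gbp3 and 165 before Gbp5. GAS letters lay 245 and 52 bases before the start of Gbp5 and 106 and 87 before Gbp7. A second annotated start of Gbp3 had neither motif. Over 32851 promoter windows, 3.44% held the ISRE letters, 8.3% the GAS letters and 0.454% both. A match is a description and not a site.

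**Figure D1:**
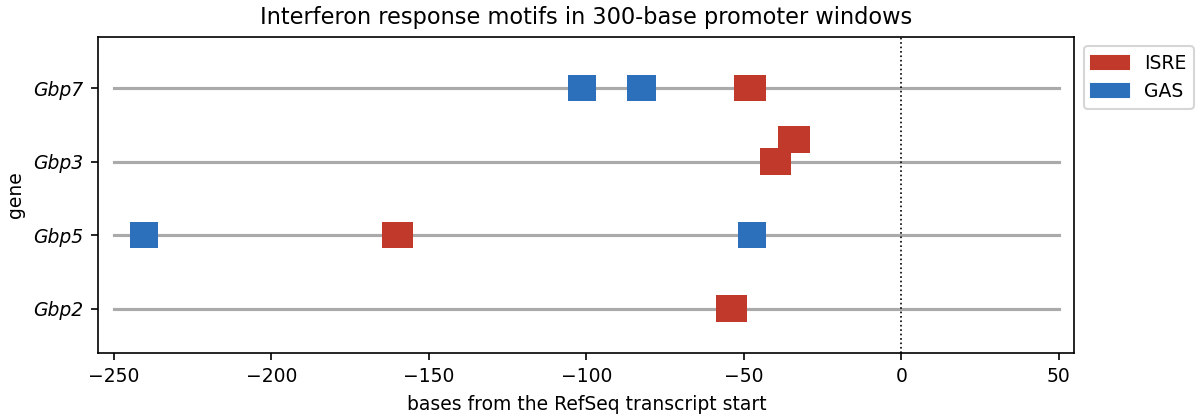
ISRE (red) and GAS (blue) letters in the promoter windows of 4 Gbp genes, in bases from the transcript start (dotted line). The ISRE letters of Gbp2, Gbp3 and Gbp7 begin within 59 bases of the start and those of Gbp5 at 165.

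Gbp transcripts were plentiful after both treatments and somewhat higher after IL-15C. The 8 genes summed to 243, 227 and 224 FPKM after IL-15C against 198, 204 and 210.3 after IL-2C, and every IL-15C sum exceeded every IL-2C sum. Means were 231 ± 10.1 and 204 ± 5.93 FPKM (SD, n = 3 each), a ratio of 1.13. The ratio was 1.10 without IL-15C library 1 and 1.12 without IL-2C library 1. No test is given for a sum over chosen genes. In bulk RNA, more cells carrying a transcript and more transcript per cell cannot be told apart.

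Both clusters shared the direction. The chromosome 3 genes summed to 88.9, 85.0 and 80.4 FPKM after IL-15C against 77.8, 75.5 and 77.0 after IL-2C, a ratio of 1.10 (1.08 without IL-15C library 1). The chromosome 5 genes summed to 154, 142 and 144 FPKM after IL-15C against 121, 128 and 133 after IL-2C, a ratio of 1.15 (1.12 without it). Neither pair of groups overlapped. Without Gbp4 and Gbp9, left out after their values were seen, the other 6 genes had a ratio of 1.09 (1.07 without that library), and the lowest IL-15C sum (131 FPKM) barely exceeded the highest IL-2C sum (129.6).

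**Figure D2:**
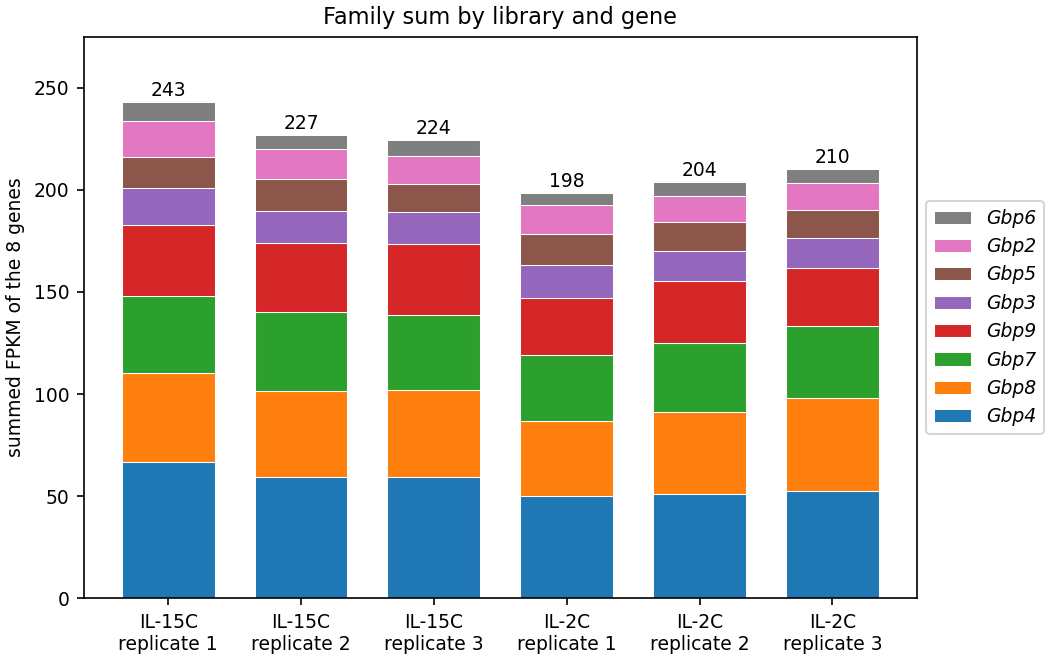
Summed FPKM of the 8 Gbp genes in each library (bars from 0), with each gene's part in colour and the total above. The IL-15C bars reach 224 to 243 FPKM and the IL-2C bars 198 to 210.

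Gbp4 made up 24.9% to 27.4% of the family, Gbp8 17.98% to 21.7%, Gbp7 15.6% to 17.1% and Gbp9 13.5% to 15.4%. Together they held 74.2% to 77.3% in each library. Gbp4 alone of the 8 had shares that separated the groups, at 27.4, 26.1 and 26.4% after IL-15C against 25.1, 25.1 and 24.9% after IL-2C. A share of the family has no counterpart over all genes, so this count has no background, and it was not tested. The level of Gbp4 is also among those uncertain gene by gene.

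Mean levels over the 6 libraries ranked as Gbp4 (56.4 FPKM), Gbp8 (41.8), Gbp7 (35.9), Gbp9 (31.5), Gbp3 (16.0), Gbp5 (14.5), Gbp2 (14.4) and Gbp6 (7.28). Of the genes tested, 10.8% had a higher mean than Gbp4 and 67.5% a higher mean than Gbp6. Gbp4 lay above Gbp8, Gbp9 above Gbp3 and Gbp2 above Gbp6 with no overlap of their values. Gbp8 and Gbp7, Gbp7 and Gbp9, and Gbp3 and Gbp5 overlapped in range, although the first of each pair was higher in 6 of 6 libraries. Gbp5 was above Gbp2 in 4 of 6, so these neighbours did not differ beyond their spread. Gbp10, another family gene, had 1.54, 1.05 and 1.13 FPKM after IL-15C against 0.912, 0.901 and 1.08 after IL-2C and did not pass (limma adjusted p = 0.247), with a log2 change of 0.18, and 0.09 without IL-15C library 1. Gbp11 rested on 1 to 8 implied fragments, and Gbp2b was listed at 0 in 5 libraries.

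**Figure D3:**
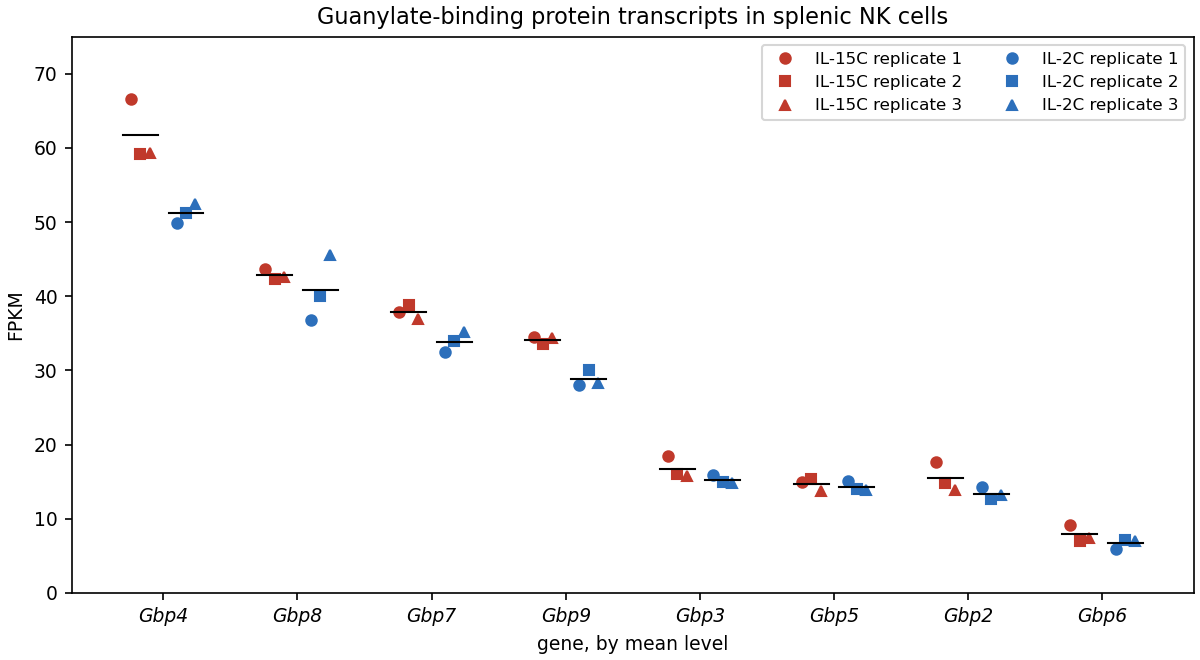
FPKM of the 8 Gbp genes, by mean level, in each IL-15C (red) and IL-2C (blue) library; symbols mark the library number and black lines the group means. The groups are apart for Gbp4, Gbp7 and Gbp9 and overlap for the other 5 genes.

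Of the 8 genes, 2 rose (Gbp4 and Gbp9), 0 fell and 6 did not pass the test, which was limma on log2(FPKM + 1) with a Benjamini-Hochberg adjusted p under 0.05, two-sided. Over all genes tested, 1.72% rose and 4.72% fell. At an unadjusted p under 0.05, 5 Gbp genes were higher and 0 lower, where 6.48% of all genes tested were higher and 20.4% lower. All 8 changes exceeded 0, as did 35.3% of all genes tested, and their median was 0.17 against -0.04 over all genes. Without IL-15C library 1 these medians were 0.11 and -0.05. The IL-15C values lay wholly above the IL-2C values for 3 of the 8, against 8.15% of genes tested. Changes below are log2 differences with their standard errors (SE), on a scale that understates low genes.

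Gbp4, the most abundant member, had 66.7, 59.1 and 59.3 FPKM after IL-15C against 49.9, 51.2 and 52.4 after IL-2C. The groups did not overlap, and IL-15C library 1 was the highest. Means were 61.7 ± 4.30 and 51.2 ± 1.28 FPKM (SD, n = 3 each), and the change was 0.26 ± 0.05 (SE; limma adjusted p = 0.0289). It was 0.21 and still passed without IL-15C library 1 (limma adjusted p = 0.0285). The call was lost, in limma, without IL-15C library 2 (adjusted p = 0.0524), or without IL-2C library 1 (0.1), 2 (0.107) or 3 (0.0539).

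Gbp9, a neighbour of Gbp4 on chromosome 5, had 34.5, 33.5 and 34.4 FPKM after IL-15C against 28.1, 30.0 and 28.3 after IL-2C. The IL-15C libraries lay close together, above all IL-2C libraries. Means were 34.1 ± 0.568 and 28.8 ± 1.08 FPKM (SD, n = 3 each), and the change was 0.24 ± 0.04 (SE; limma adjusted p = 0.0195). It was 0.23 without IL-15C library 1 (limma adjusted p = 0.0236). The call was lost, in limma, without IL-15C library 2 (adjusted p = 0.0508) or 3 (0.0544), or without IL-2C library 1 (0.0777) or 2 (0.0605).

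An interval can be turned into the fragments it would stand for if it held counting error alone. Scaled to the library and fitted in the same way, an alternative chosen after the data were seen, Gbp9 changed by 0.25 (limma adjusted p = 0.0228) and Gbp4 by 0.15 (limma adjusted p = 0.114), so the call of Gbp4 was lost. Set against what FPKM and the GENCODE transcript length give, the implied fragments came to 32.7 to 38.5% for Gbp4 and 35.5 to 41.9% for Gbp7. They came to 93.1 to 101% for Gbp3 and 99.3 to 111% for Gbp2. For the other 4 they exceeded it, from 141% for Gbp9 to 295% for Gbp6. Implied fragments are therefore not read as counts for any member, and the call of Gbp9 gains no support from them.

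Gbp7, linked to host defence at vacuoles, had 37.8, 38.9 and 37.0 FPKM after IL-15C against 32.5, 33.9 and 35.2 after IL-2C. Its groups did not overlap. The change of 0.16 ± 0.04 (SE) did not pass (limma adjusted p = 0.0623), but it passed after scaling to a common median (0.0467) and with array weights (0.0163), within 0.0163 to 0.19 over 17 alternatives. Without IL-15C library 1 the change was 0.16 (limma adjusted p = 0.0814).

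The other chromosome 3 genes overlapped between groups. Gbp2, which coats Toxoplasma vacuoles, had 17.6, 14.9 and 13.9 FPKM after IL-15C against 14.3, 12.7 and 13.2 after IL-2C. Its change was 0.19 ± 0.08 (SE; limma adjusted p = 0.161), and 0.10 without IL-15C library 1, its highest. Gbp3 had 18.4, 16.0 and 15.8 FPKM after IL-15C against 15.9, 14.9 and 14.9 after IL-2C, with the same library highest. Its change was 0.13 ± 0.06 (limma adjusted p = 0.225), and 0.06 without it. Gbp5, known for promoting NLRP3 inflammasome assembly, had 14.98, 15.3 and 13.7 FPKM after IL-15C against 15.2, 14.0 and 13.8 after IL-2C. Its groups covered nearly the same range, with a change of 0.03 ± 0.05 (limma adjusted p = 0.722), and 0.02 without IL-15C library 1.

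On chromosome 5, Gbp8 had 43.7, 42.3 and 42.6 FPKM after IL-15C against 36.7, 40.0 and 45.6 after IL-2C. The IL-2C libraries included both its highest and its lowest value. Its change was 0.08 ± 0.07 (SE; limma adjusted p = 0.512), from 0.00478 without IL-2C library 1 to 0.16 without IL-2C library 3, and 0.06 without IL-15C library 1. Gbp6 had 9.21, 7.06 and 7.46 FPKM after IL-15C against 5.91, 7.08 and 6.98 after IL-2C, with IL-15C library 1 well above the rest. Its change was 0.21 ± 0.09 (limma adjusted p = 0.176), 0.11 without that library and 0.14 without IL-2C library 1, its lowest. Summed with Gbp10, which shares most of its windows, it gave 10.8, 8.11 and 8.59 FPKM after IL-15C against 6.82, 7.98 and 8.06 after IL-2C. The ratio of these sums was 1.20, and 1.10 without IL-15C library 1.

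**Figure D4:**
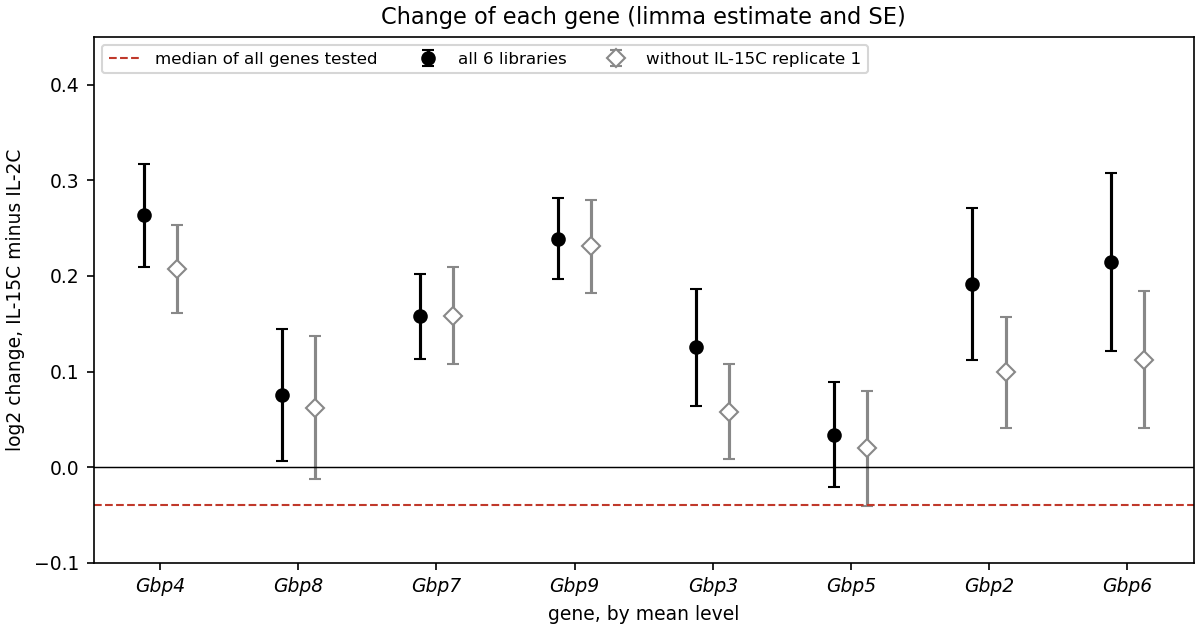
Log2 change (IL-15C minus IL-2C) of each Gbp gene with the SE of limma's fit, for all 6 libraries (filled) and without IL-15C library 1 (open); the dashed line is the median of all genes tested, -0.04. Every estimate is above 0, and Gbp2, Gbp3 and Gbp6 drop most without that library, Gbp6 from 0.21 to 0.11.

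The authors' deposited table of group FPKM pools the same libraries with a separate scaling. In the authors' deposited table the IL-15C to IL-2C ratio was 1.24 for Gbp4, 1.22 for Gbp9, 1.06 for Gbp5 and 1.17 for the sum, and the intervals of the groups overlapped for all 8 genes.

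Of 15 tested genes of interferon signalling, 1 rose and 2 fell, against 1.72% and 4.72% of all genes tested (limma). The other 12 did not pass. The median change of the list was 0.03, and 0.01 without IL-15C library 1. Ifng, the gene of interferon gamma itself, had 44.0, 38.7 and 41.3 FPKM after IL-15C against 29.3, 33.5 and 33.2 after IL-2C. The groups were apart, and the change was 0.36 ± 0.06 (limma adjusted p = 0.0197), lost without IL-2C library 1 (0.0687) or 2 (0.0671). It was 0.31 without IL-15C library 1 (limma adjusted p = 0.0204). Ifnar2, a chain of the type I interferon receptor, had 27.9, 27.4 and 27.5 FPKM after IL-15C against 32.0, 32.3 and 32.1 after IL-2C, a change of -0.21 (limma adjusted p = 0.0191) that passed in 2 of 6 omissions of a library. Ptpn2, a phosphatase that dampens cytokine receptor signalling, had 40.4, 38.9 and 40.7 FPKM after IL-15C against 45.6, 44.4 and 44.4 after IL-2C. Its change of -0.16 (limma adjusted p = 0.0479) passed in 0 of 6 omissions. It was lost in 6 other fits, among them median scaling (limma adjusted p = 0.0883), and was 0.00151 on implied fragments. Irf1 and the receptor genes Ifngr1 and Ifngr2 are named outside the rule, for their role. Irf1 did not pass and had 138, 119 and 130.3 FPKM after IL-15C against 134, 127 and 113 after IL-2C, and the groups overlapped. For the interferon gamma receptor, Ifngr1 was at 204 to 236 FPKM and Ifngr2 at 0.0890 to 0.284.

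Of 8 tested IRG genes, 0 rose and 0 fell (limma; 1 higher and 0 lower at an unadjusted p under 0.05, against 6.48% and 20.4% of all genes), with a median change of 0.07, and -0.02 without IL-15C library 1. Gm12250 had 15.1, 12.3 and 12.1 FPKM after IL-15C against 11.4, 11.8 and 11.1 after IL-2C, with groups apart (limma adjusted p = 0.162), a change of 0.18 that was 0.09 without that library. Irgm2 had 15.2, 11.9 and 12.3 FPKM after IL-15C against 11.5, 12.1 and 11.5 after IL-2C, and Irgm1 had 23.8, 22.9 and 22.6 FPKM after IL-15C against 24.1, 25.0 and 23.4 after IL-2C. The groups overlapped for both, and the change of Irgm2 was 0.15, and 0.04 without that library.

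Of 14 other tested interferon gamma targets, 0 rose and 0 fell (limma; 2 higher and 1 lower at an unadjusted p under 0.05, against the same 6.48% and 20.4%), with a median change of 0.08, and 0.01 without IL-15C library 1. Parp14 had 27.0, 25.4 and 25.8 FPKM after IL-15C against 23.3, 23.2 and 23.6 after IL-2C, with groups apart (limma adjusted p = 0.0545). It passed in 5 of 17 alternatives, among them array weights (limma adjusted p = 0.0175) and median scaling (0.0226). Its change was 0.15, and 0.13 without IL-15C library 1. Nlrc5, the transactivator of MHC class I genes, had 43.2, 35.2 and 36.5 FPKM after IL-15C against 30.6, 33.0 and 34.5 after IL-2C (limma adjusted p = 0.11), a change of 0.22, and 0.13 without that library. Gch1, the first enzyme of tetrahydrobiopterin synthesis, had a change of -0.15 and did not pass.

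Of 19 tested antiviral genes known as type I interferon targets, 2 rose and 0 fell, against 1.72% and 4.72% of all genes (limma). The other 17 did not pass. The median change of the list was 0.07, and 0.03 without IL-15C library 1. Mx1, an antiviral dynamin-like GTPase, had 14.1, 13.9 and 15.4 FPKM after IL-15C against 12.4, 11.9 and 12.4 after IL-2C (limma adjusted p = 0.034). Ifi27l2a had 7.63, 6.01 and 6.28 FPKM after IL-15C against 5.30, 5.13 and 4.76 after IL-2C (limma adjusted p = 0.0432). Both calls passed without IL-15C library 1 and were lost in the other 5 omissions. Cmpk2 did not pass, at a change of 0.15.

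For the partner genes below, the shares over all genes tested were 1.72% higher and 4.72% lower by limma. At an unadjusted p under 0.05 they were 6.48% and 20.4%. Of 7 tested inflammasome genes, 0 rose and 0 fell (limma; 0 higher and 1 lower at an unadjusted p under 0.05). Changes were -0.16 for Nek7, a kinase needed for NLRP3 activation, 0.20 for the DNA sensor gene Aim2 and 0.08 for the adaptor gene Pycard. Aim2 dropped to 0.04 without IL-15C library 1 and Pycard to 0.03 without IL-2C library 2. Of 16 tested vacuole-targeting genes, 1 rose, 0 fell and 15 did not pass. The median of that list was -0.05. The gene that rose was Lgals3, which encodes galectin-3, with 8.48, 5.66 and 5.44 FPKM after IL-15C against 3.18, 3.62 and 3.34 after IL-2C (limma adjusted p = 0.0189). Its change was 0.76, and 0.58 without IL-15C library 1. It was lost without any 1 of the IL-2C libraries (limma adjusted p from 0.0522 to 0.0834). Atg16l1 and Lgals8 had changes of -0.13 and -0.08. Of 6 prenylation genes, 0 rose and 0 fell (limma; 0 higher and 1 lower at an unadjusted p under 0.05), and Fnta, Rce1 and Icmt had -0.15, -0.10 and -0.05. Of 8 other tested dynamin-like GTPases, 1 rose, which was Mx1 again, and 0 fell. Dnm1l and Mfn1, of mitochondrial fission and fusion, had 0.09 and -0.09.

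**Figure D5:**
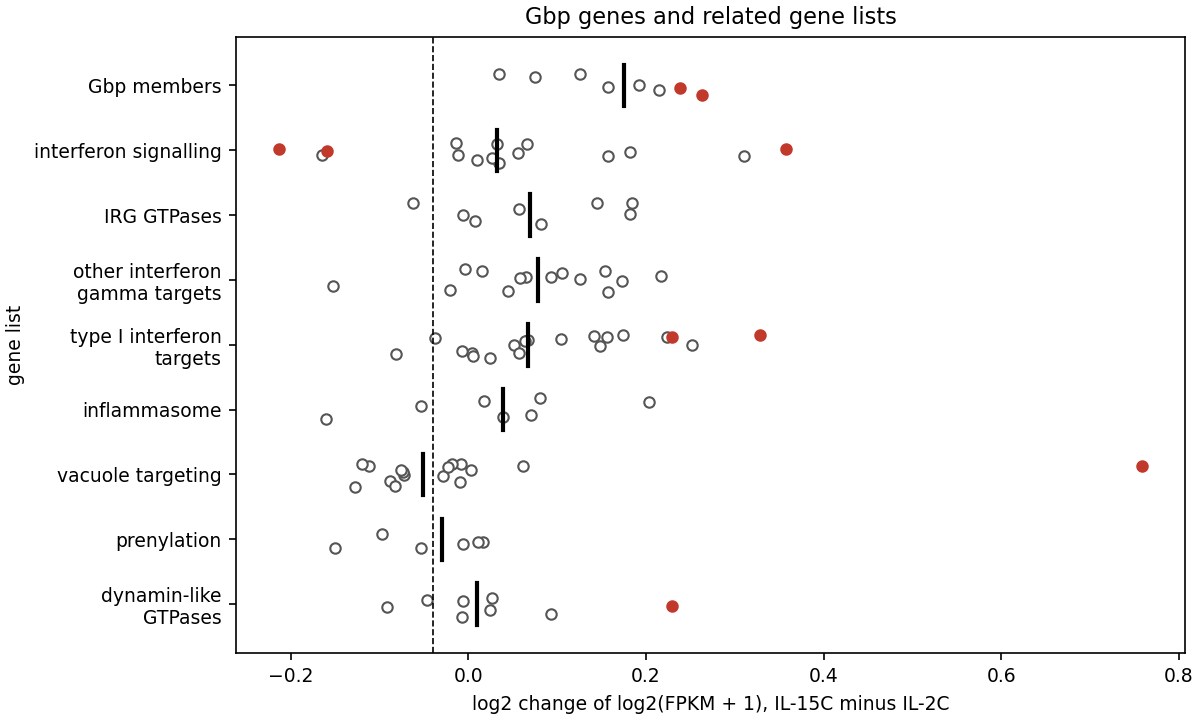
Log2 change (IL-15C minus IL-2C) of every tested gene in the Gbp family and 8 related lists; filled red points passed limma's test, black bars are medians and the dashed line is the median of all genes, -0.04. The Gbp median is 0.17, and those of the other lists lie between -0.05 and 0.08, before IL-15C library 1 is left out.

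Likeness to the family sum was measured as the root mean square difference of centred log2 profiles over the 6 libraries, among 7548 other genes of at least 5 FPKM. The closest 8 were Sdad1 (0.0184), Mapk6 (0.0271), Parp14 (0.0275), Sorl1 (0.0291), 2310022A10Rik (0.0294), Plec (0.0298), Plagl2 (0.0306) and Eif2ak2 (0.0306), where the median gene had 0.131 and a flat profile 0.0994. None of the 8 passed limma (adjusted p from 0.0532 to 0.105). Members are part of the sum, which draws their profiles toward it. Among them, Gbp7 (0.0416) and Gbp4 (0.0474) were closest to the sum and Gbp5 (0.105) the farthest. The libraries share depth and scaling, so this is a description.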

How the data were processed

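RNA from sorted NK cells was sequenced in 6 libraries, grouped by their titles. TopHat2 2.0.13, Cufflinks 2.2.1 and mm10 are named, per the submitters' processing notes; the annotation and the role of each tool are not given. The authors deposited FPKM values with bounds for each library and, in 1 further table, for each group, per the file headers. Duplicate rows of 280 genes were added together, and 10 genes with a failed estimate were dropped. Fragment counts were not used; fragments implied by the bounds assume 2 SD of counting error and did not match FPKM and transcript length for most members.

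Genes were fitted in limma 3.58.1 (R 4.3.3) with an intensity trend, after a check on simulated data. That check set a requirement only for changes much larger than those of the Gbp genes, so it does not vouch for calls of their size. Tables were made in Python 3.11.15. Alternatives were pseudocounts of 0.1 and 5, other filters, 3 scalings, no trend, array weights, a replicate block, each library omitted in turn and, added later, implied fragments.

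The members and the 9 gene lists were chosen with earlier results of these data known. Named genes are the members, other Gbp genes, each list's called genes and its smallest adjusted p values up to 3, and the 8 most alike in profile; Irf1, Ifngr1 and Ifngr2 were added for their role.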

Additional observations from a re-analysis of the deposited data

How the results depend on the processing

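All 8 Gbp genes kept a change above 0 in the 17 alternatives run. limma called 2, and 3 with array weights or median scaling, when Gbp7 joined. Without a filter on low values it called 0 (3 at an unadjusted p under 0.05) and 15 genes in all, and on implied fragments it called 1, Gbp9. Omitting each library in turn gave 0 to 2 Gbp genes and 29 to 747 genes in all, against 633. The 0 came without IL-15C library 2, IL-2C library 1 or IL-2C library 2, with 5, 4 and 4 at an unadjusted p under 0.05. In all, genes called were 194 without IL-15C library 2, 262 without IL-15C library 3, and 46, 29 and 326 without IL-2C library 1, 2 and 3. Array weights called 2107 genes. Higher and lower calls were 169 and 464, but 325 and 207 after median scaling, 307 and 269 after quantile normalization and 208 and 328 in TPM. The ratio of family sums stayed between 1.10 and 1.17. Ptpn2 reversed on implied fragments, at 0.00151 (limma adjusted p = 0.986), and the cause was not tested.

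With a replicate block 517 genes were called, Gbp4 and Gbp9 among them. Deviations of libraries with the same number correlated at -0.029, -0.156 and -0.024, and those with different numbers at -0.143 to 0.177. The labels do not say whether the numbers pair libraries. These values cannot decide it, because a pairing need not dominate the deviations.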

Other observations

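Of 56 tested genes in the 4 interferon lists (signalling, IRG, interferon gamma targets and type I interferon targets), 34 (60.7%) had their highest value in IL-15C library 1 and 5 (8.93%) their lowest. Over all genes tested the shares were 25.0% and 18.4%. This tally was made after the values were seen, and its cause was not tested. Socs1, a feedback inhibitor of JAK kinases, had 11.7 FPKM there and 6.44 to 7.43 in the other 5 libraries. Aim2, of the inflammasome list, had 13.02 FPKM there and 7.92 to 9.35 in the other 5 libraries. In the other direction, the antiviral gene Ifit2 had 14.6 FPKM there and 15.6 to 17.3 in the other 5 libraries, and Ifit3 had 2.99 FPKM there and 3.37 to 3.74 in the other 5 libraries.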
